A study of Mus musculus with 54 samples.

Results

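Livers of Liver-RE mice harvested 8 h after lights on (ZT8) were compared with livers of wild-type (WT) mice harvested at the same time. Their 6 libraries, 3 Liver-RE and 3 WT, were taken by genotype and harvest time from the 54 libraries of the study, and 11599 of the 18079 genes in the table had a mean of at least 0.5 FPKM over these 6 and were tested. Liver-RE mice (BMAL1-stop-FL) lacked the clock factor BMAL1 except where it had been put back in the liver; the Cre driver is not given in the sources used here, so the share of liver cells with BMAL1 is not known from them. WT mice were the intact controls. All mice were C57BL/6J females of 8 to 12 weeks, fed normal chow freely under 12 h of light and 12 h of dark, and each library came from 1 liver. Knockout (KO) mice without BMAL1, the third genotype, serve below to show the range of the clock genes. Their livers also enter the fits that take the spread of each gene from all libraries. The study asked how autonomous the clock of the liver is, and it sampled 3 livers per genotype at each of ZT0, 4, 8, 12, 16 and 20 and sequenced total RNA freed of ribosomal RNA.

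BMAL1, the product of Arntl, pairs with CLOCK or NPAS2 and switches on genes through E-box sequences. Among those genes are the PER and CRY repressors, which shut the pair off again, and the REV-ERB receptors (Nr1d1 and Nr1d2), which repress Arntl itself. In liver the same loop drives D-box factors such as DBP, and through them and through feeding many genes of lipid, sugar, bile acid and drug metabolism cycle over the day. ZT8 lies in the second part of the light phase, when mice eat little, REV-ERB is high and Arntl is low in a wild-type liver. FPKM is a level scaled for transcript length and sequencing depth, and fold changes are differences of log2(FPKM + 1), Liver-RE minus WT, which understate the change of low genes.

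One WT library did not match the others, and it bears on every value below. In WT replicate 2, 160 genes (1.38% of those tested) and 16 of 42 tested clock genes differed by at least 2-fold, on the log2(FPKM + 1) scale, from both other WT libraries. In the other 5 libraries that share was 0.112% to 0.862% of genes, with 0 to 4 clock genes. Its Arntl, Cry1, Dbp, Nr1d1, Ciart and Npas2 levels lay within the range of the WT livers of ZT20, and 4 other clock genes did not. Of these, Nr1d2 (3.38 FPKM) lay within the range of ZT0, Clpx (85.9 FPKM) within that of ZT4, Tef (18.8 FPKM) just above the ZT20 range of 12.5 to 18.3 FPKM, and Nfil3 (20.7 FPKM) above all other WT livers. Results are therefore also given without this library. The depth that the smallest steps between low values imply was 25.4 to 35.1 M reads in Liver-RE and 26.6 to 38.5 M reads in WT. The FPKM values summed to 313500 to 372700 in Liver-RE and 361000 to 384000 in WT, and albumin (Alb), the defining hepatocyte transcript, took 7.57% to 9.56% of the sum in Liver-RE and 9.18% to 10.4% in WT. Xist was present and Ddx3y was at or near 0 in all 6, as the label of females has it.

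Over all genes, no gene differed between Liver-RE and WT livers at ZT8 at an adjusted p under 0.05 (limma, 0% of 11599 genes in either direction; smallest adjusted p 0.303, for Enho and Cd36). Before adjustment, at p under 0.05, 155 genes were higher in Liver-RE (1.34%) and 484 lower (4.17%), 5.51% in all. Without WT replicate 2, 1 gene was lower (0.00864% of 11570 genes) and 0 higher, with 1.43% higher and 4.89% lower (6.32% in all) at an unadjusted p under 0.05. The gene was Sult3a2, a sulfotransferase with 0.0221, 0.144 and 0.124 FPKM in Liver-RE livers, against 2.12, 0.241 and 1.78 FPKM in WT livers (log2 fold change -1.43 ± 0.13 SE without WT replicate 2, limma adjusted p = 0.0496). Sult3a2 reached the mean of 0.5 FPKM through the WT livers alone, as did Disp2, Ogn, Nim1k and Mgp among the genes named below, and Cyp4a12a, Mmp9 and Slc2a4 did so through the Liver-RE livers alone, so the filter favoured a difference in these genes. Leaving out Liver-RE replicate 2 gave 4 higher and 5 lower genes, and leaving out Liver-RE replicate 1 gave 1 higher and 0 lower. Leaving out WT replicate 1 gave 0 higher and 1 lower. In a fit that took the spread of each gene from all 54 libraries, 1 gene was higher (0.00862%) and 9 were lower (0.0776%). With that spread and without WT replicate 2, 4 were higher (0.0346%) and 21 lower (0.182%), and 7 genes were called in both. For single genes below, the text gives the values of each liver and says where the 3 Liver-RE and 3 WT values do not overlap, since an exact permutation test of 3 against 3 cannot go below p = 0.1. Over all genes, all Liver-RE values lay above all WT values for 1.55% of genes, and below for 12%. The median log2 fold change over all genes was -0.11, and quantile normalization, which brought that median to -0.01, gave shares of 4.17% above and 5.03% below. Counts of lower genes below are therefore read against 12%, and counts of higher genes against 1.55%.

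In Liver-RE livers at ZT8 the loop stood at low Arntl and middling Dbp, while WT replicates 1 and 3 had low Arntl with high Dbp and Nr1d1. Nr1d1 was low in Liver-RE replicates 1 and 2 (1.81 and 1.35 FPKM) and middling in replicate 3 (9.15 FPKM). Of 44 listed clock genes 42 were tested, and none passed the limma test over the 6 libraries. Over the 6 libraries, none of the 4 lists of the core loop had a member wholly above or below WT. Their medians were -0.33 for the 2 tested activators, -0.02 for 6 repressors, 0.07 for 4 REV-ERB and ROR receptors and 0.03 for 4 D-box factors. Without WT replicate 2 all 4 medians changed sign, to 0.30, 0.08, -0.43 and -0.27 in that order. Then 1 activator lay above both remaining WT livers and 1 repressor below. Of the receptors 1 lay above and 2 below, and of the D-box factors also 1 above and 2 below. Among all 42 only Nampt lay above and only Clpx and Hsd17b6 below all WT livers. The start regions of a target with several E-boxes, of a D-box factor and of Arntl itself are shown as examples of windows that hold these motifs. They were not picked for the size of the difference between the groups, and for each gene the window with the most matches is given. Each runs 5′ to 3′ from 250 bases before the annotated start to 50 bases after it (RefSeq, GRCm38.p6), with E-boxes (CACGTG, a palindrome) or the half-site AGGTCA of REV-ERB and ROR receptors (on either strand) in capitals.
Ciart, chr3:95882179-95882478, minus strand: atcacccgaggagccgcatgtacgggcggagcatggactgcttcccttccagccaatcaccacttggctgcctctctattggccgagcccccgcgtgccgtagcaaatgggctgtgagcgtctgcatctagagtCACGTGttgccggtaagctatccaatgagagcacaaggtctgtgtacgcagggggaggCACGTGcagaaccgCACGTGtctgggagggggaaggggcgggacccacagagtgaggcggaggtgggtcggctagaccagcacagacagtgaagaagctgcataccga
Tef, chr15:81802423-81802722, plus strand: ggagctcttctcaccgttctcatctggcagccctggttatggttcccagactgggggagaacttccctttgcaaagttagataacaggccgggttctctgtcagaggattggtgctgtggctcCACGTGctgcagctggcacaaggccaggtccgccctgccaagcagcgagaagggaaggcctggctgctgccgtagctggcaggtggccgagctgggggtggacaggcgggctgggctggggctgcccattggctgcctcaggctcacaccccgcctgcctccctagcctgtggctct
Arntl, chr7:113207261-113207560, plus strand: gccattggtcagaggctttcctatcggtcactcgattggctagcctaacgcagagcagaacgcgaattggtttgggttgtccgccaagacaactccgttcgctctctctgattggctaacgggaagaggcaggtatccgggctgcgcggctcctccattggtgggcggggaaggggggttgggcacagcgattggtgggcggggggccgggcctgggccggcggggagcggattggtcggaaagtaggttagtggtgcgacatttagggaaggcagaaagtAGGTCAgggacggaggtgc
The Ciart window held 3 E-boxes, with first bases at -116, -58 and -44 from the start. The Tef window held 1, at -127, and the Arntl window 1 half-site, at 31, each in 1 of 2 windows listed for the gene. CACGTG occurred in 7.15% of the 32851 windows in the table and AGGTCA in 16.3%. Of the 36 clock genes with a window, 9 held CACGTG in at least 1 window and 7 held AGGTCA, against 8.09% and 18.1% of all 27025 genes. A match of letters is a description of the window and does not show binding.

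Among the activators, Arntl (chr7:113178471-113314126) had 0.894, 1.94 and 1.37 FPKM in Liver-RE livers, against 0.414, 10.6 and 0.563 FPKM in WT livers. Every Liver-RE value was above WT replicates 1 and 3 and far below WT replicate 2, so the log2 fold change was -0.32 ± 0.70 with it and 0.67 ± 0.19 without it (SE; limma adjusted p = 0.882 and 0.584). Arntl lay between 6.78 and 7.46 FPKM in the KO livers of ZT8, so its whole-gene value does not check the labels; which part of the gene the stop allele leaves in the transcript is not given in the sources used here. Clock, the partner of BMAL1, had 4.46, 4.82 and 5.07 FPKM in Liver-RE and 5.11, 9.58 and 5.004 FPKM in WT. Npas2, an alternative partner, stayed under the filter, with 0.309, 0.531 and 0.497 FPKM in Liver-RE and 0.0791, 0.756 and 0.104 FPKM in WT. For both Arntl and Npas2 every Liver-RE liver was above WT replicates 1 and 3, with means 2.87 and 4.87 times those of these 2 livers, while Clock was below or near them.

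Among the repressors, Per2, a period gene, had 6.60, 11.5 and 3.84 FPKM in Liver-RE and 3.56, 5.03 and 4.34 FPKM in WT. Per3 had 7.197, 9.19 and 9.92 FPKM in Liver-RE and 5.69, 2.35 and 9.12 FPKM in WT, and Per1 had 3.30, 1.44 and 2.97 FPKM against 3.46, 1.43 and 2.03 FPKM in WT. The groups overlapped for all 3 period genes. Cry1, a cryptochrome repressor, had 5.43, 6.44 and 2.36 FPKM in Liver-RE and 2.95, 15.3 and 2.40 FPKM in WT, while Cry2 had 5.31, 6.84 and 8.87 FPKM against 7.17, 8.01 and 8.19 FPKM in WT. Ciart, a repressor of the CLOCK:BMAL1 pair whose E-boxes are shown above, had 2.55, 1.25 and 1.96 FPKM in Liver-RE, against 5.45, 0.411 and 4.67 FPKM in WT. All Liver-RE livers lay under WT replicates 1 and 3 and over WT replicate 2. Its log2 fold change was -0.37 ± 0.51 over the 6 libraries and -1.07 ± 0.20 without WT replicate 2 (SE; limma adjusted p = 0.822 and 0.325).

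Nr1d1 (chr11:98767932-98775377), which encodes REV-ERBα, had the largest log2 fold change of the clock genes once WT replicate 2 was left out. It had 1.81, 1.35 and 9.15 FPKM in Liver-RE livers, against 17.7, 0.292 and 16.5 FPKM in WT livers. Liver-RE replicate 3 was well above its fellows, and all 3 lay below WT replicates 1 and 3. The log2 fold change was -0.88 ± 0.99 over the 6 libraries (limma adjusted p = 0.802), and -2.15 ± 0.55 without WT replicate 2 (adjusted p = 0.503, or 0.0189 with the spread of all other libraries). Nr1d2, its paralog REV-ERBβ, had 17.0, 17.6 and 32.0 FPKM in Liver-RE and 35.1, 3.38 and 33.8 FPKM in WT, in the same order. Rora, which encodes a receptor that competes with the REV-ERBs for the same sites, had 7.44, 8.83 and 13.2 FPKM in Liver-RE and 11.2, 11.4 and 10.8 FPKM in WT. Relative to WT replicates 1 and 3, both REV-ERB genes were lower in all 3 Liver-RE livers, while Rora overlapped.

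The D-box activator Dbp (chr7:45705100-45710203) had 17.3, 19.4 and 43.8 FPKM in Liver-RE livers, against 61.9, 1.31 and 66.0 FPKM in WT livers. Its sign turned with WT replicate 2: the log2 fold change was 0.26 ± 1.14 with it and -1.34 ± 0.36 without it (SE; limma adjusted p = 0.940 and 0.541). Tef, a second D-box activator, had 31.4, 35.7 and 40.1 FPKM in Liver-RE and 43.4, 18.8 and 43.2 FPKM in WT, and Hlf, the third, 8.57, 7.07 and 5.94 FPKM against 9.43, 5.28 and 7.99 FPKM in WT. Nfil3, the repressor at the same D-boxes, had 4.08, 6.29 and 4.33 FPKM in Liver-RE and 4.03, 20.7 and 2.98 FPKM in WT. Without WT replicate 2, Dbp and Tef were lower and Nfil3 higher in every Liver-RE liver. With the replicate, none of these groups separated. In KO livers of ZT8, Dbp lay between 1.58 and 1.67 FPKM and Nr1d1 between 0.241 and 0.740 FPKM.

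**Figure D1:**
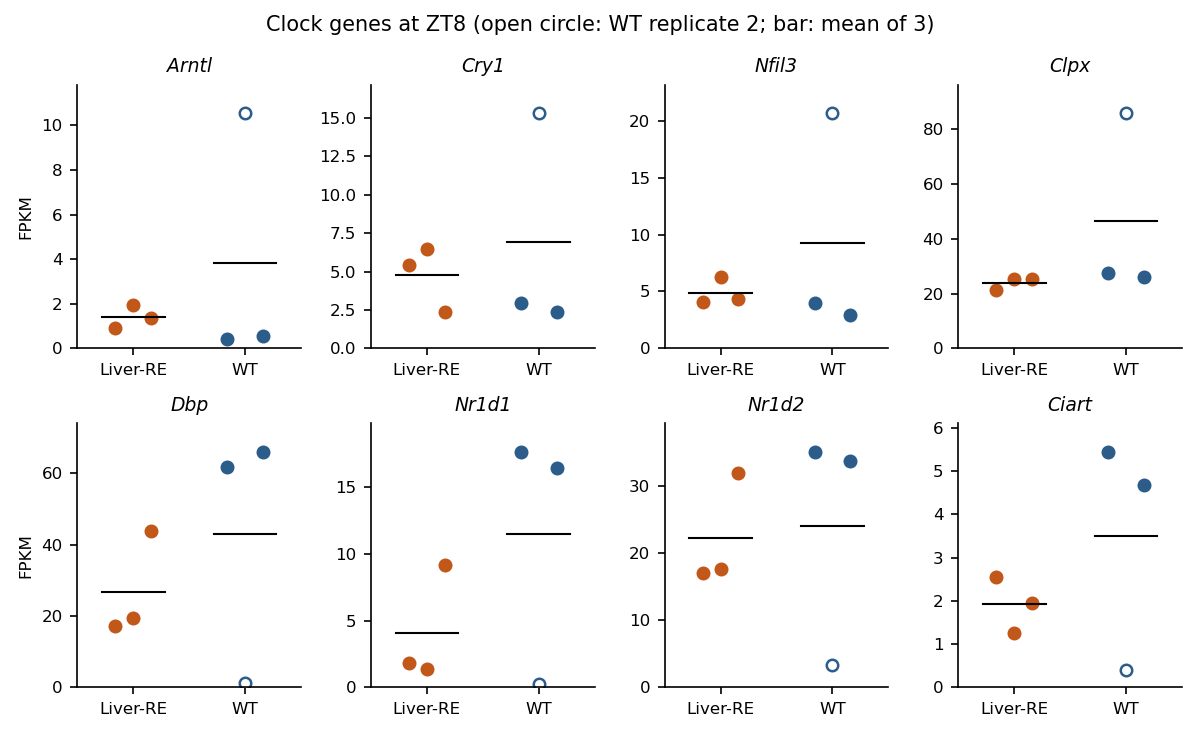
Levels of 8 clock genes at ZT8 in FPKM (linear axes from 0), with 3 Liver-RE livers left of 3 WT livers in each panel, 1 point per liver, bars at the means and an open circle for WT replicate 2. WT replicate 2 sits apart from its fellows in every panel, at 10.6 FPKM for Arntl and 1.31 FPKM for Dbp, and the Liver-RE values of Dbp, Nr1d1, Nr1d2 and Ciart lie between it and the other WT livers.

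The clock modifiers and the clock outputs of metabolism were close to WT by their medians, though single outputs differed in both directions. Of 7 tested modifiers, such as the kinase Csnk1d, 0 lay wholly above or below WT, with a median log2 fold change of -0.12. Of 19 outputs 1 lay above and 2 below, with a median of 0.11 over the 6 libraries and -0.01 without WT replicate 2. Without that library 3 outputs lay above and 4 below both remaining WT livers, against 3.66% and 24.2% of all genes. Their log2 fold changes then ran from -1.41 (Hsd17b6) to 1.22 (Tsku). Nampt, which makes NAD from nicotinamide, had 31.9, 36.1 and 33.2 FPKM in Liver-RE and 26.3, 29.8 and 29.1 FPKM in WT. Hsd17b6, an enzyme of androgen breakdown, had 42.0, 51.4 and 73.9 FPKM in Liver-RE, against 163, 103 and 131 FPKM in WT, 0.422 times the WT mean (log2 fold change -1.24 ± 0.25 SE, limma adjusted p = 0.498). Clpx, a mitochondrial chaperone of the ClpXP protease, had 21.5, 25.3 and 25.2 FPKM in Liver-RE and 27.4, 85.9 and 26.1 FPKM in WT, so that its gap came almost wholly from WT replicate 2. Tsku, a secreted protein of the liver, had 42.2, 29.4 and 13.3 FPKM in Liver-RE and 18.2, 14.6 and 5.79 FPKM in WT, with a spread within each group as wide as the gap between them.

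Fatty acid and triglyceride synthesis was the list that stood highest in Liver-RE livers. Of its 23 genes, all of them tested, 6 lay above all WT livers and 0 below, against 1.55% and 12% of all genes. These were Elovl6, Thrsp, Acaca, Me1, Pklr and Scd1, which run from making pyruvate and NADPH through malonyl-CoA to elongating and desaturating the fatty acid. The median log2 fold change of the list was 0.64, and 0.79 without WT replicate 2, beside -0.11 and -0.12 over all genes, and 0.73 after quantile normalization. The median log2 level of the list had an SD of 0.47 between livers of the same group. Members of the list can vary together between livers, so they are not separate evidence. No member passed the limma test over all genes in any of the fits on 6 libraries, and 8 of 23 had an unadjusted p under 0.05, all higher, against 1.34% of all genes.

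Elovl6 (chr3:129532386-129638495), the elongase of C16 fatty acids, had 203, 255 and 138 FPKM in Liver-RE livers, against 35.9, 77.1 and 36.2 FPKM in WT livers. The lowest Liver-RE liver was well above the highest WT liver, and the mean was 3.99 times that of WT (log2 fold change 2.03 ± 0.33 SE, limma adjusted p = 0.431, and 2.39 ± 0.26 with adjusted p = 0.0982 without WT replicate 2). Thrsp, the Spot 14 protein linked to lipogenesis, had 736, 787 and 949.8 FPKM in Liver-RE and 260.4, 436 and 210.4 FPKM in WT, a ratio of means of 2.73. Acaca, which makes malonyl-CoA, had 30.8, 32.9 and 24.0 FPKM in Liver-RE and 12.8, 17.4 and 13.4 FPKM in WT, a ratio of 2.01. In these 3 genes WT replicate 2 was the highest WT liver and still under every Liver-RE liver.

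Me1, the malic enzyme that yields NADPH, had 89.3, 106 and 104 FPKM in Liver-RE and 48.4, 61.4 and 32.8 FPKM in WT. Pklr, the liver pyruvate kinase at the end of glycolysis, had 203, 183 and 131 FPKM in Liver-RE and 79.9, 79.7 and 77.9 FPKM in WT, and the 3 WT livers were almost equal. Scd1, the stearoyl-CoA desaturase, had 3193, 3210.1 and 3660.3 FPKM in Liver-RE and 1904, 2396 and 1974 FPKM in WT. The ratios of the means were 2.10, 2.18 and 1.60 for these 3 genes. Acly, ATP citrate lyase, overlapped through WT replicate 2 alone, with 202, 334 and 305 FPKM in Liver-RE and 74.0, 275 and 82.9 FPKM in WT. The same held for Fasn, fatty acid synthase, with 182, 539.6 and 241 FPKM in Liver-RE and 95.9, 297 and 89.6 FPKM in WT. Without WT replicate 2, 12 of the 23 genes lay above both remaining WT livers, against 3.66% of all genes.

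**Figure D2:**
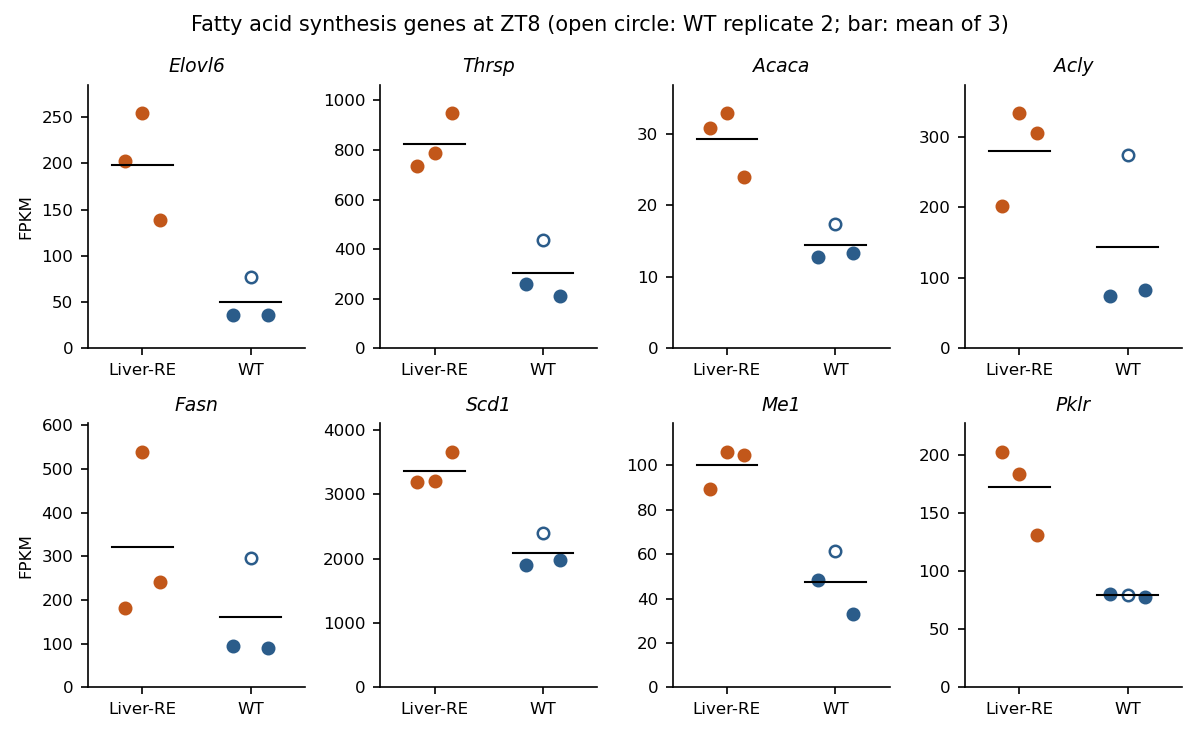
Levels of 8 fatty acid synthesis genes at ZT8 in FPKM (linear axes from 0), with 3 Liver-RE livers left of 3 WT livers in each panel, 1 point per liver, bars at the means and an open circle for WT replicate 2. For 6 of the 8 genes every Liver-RE liver is above every WT liver, while for Acly and Fasn WT replicate 2 reaches into the Liver-RE range.

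The sugar genes leaned the same way by smaller amounts. Of 24 tested genes of glycogen, glycolysis and gluconeogenesis, 5 lay above all WT livers (Pklr, given above, with Pygl, Gbe1, Pfkfb1 and Gapdh) and 0 below. The median was 0.21, and 0.10 without WT replicate 2. The median log2 level of the list had an SD of 0.26 between livers of the same group, wider than either difference. Pfkfb1, which sets the level of the glycolytic activator fructose 2,6-bisphosphate, had 15.0, 11.0 and 14.5 FPKM in Liver-RE and 6.02, 8.38 and 9.34 FPKM in WT. Pygl, liver glycogen phosphorylase, had 218, 224 and 214 FPKM in Liver-RE and 188, 181 and 161 FPKM in WT, and Gbe1, the glycogen branching enzyme, 68.2, 75.7 and 78.0 FPKM against 63.3, 55.4 and 53.9 FPKM in WT. G6pc, the glucose-6-phosphatase that releases glucose, overlapped widely, with 134, 25.9 and 73.6 FPKM in Liver-RE and 23.9, 73.7 and 25.7 FPKM in WT. Slc2a4, the insulin-responsive glucose transporter GLUT4, was low in both groups, with 1.05, 2.27 and 1.65 FPKM in Liver-RE and 0.212, 0.460 and 0.157 FPKM in WT. Its log2 fold change was 1.04 ± 0.18 (SE; limma adjusted p = 0.431), and adjusted p was 0.0446 without WT replicate 2 and with the spread of all other libraries. Slc2a4 was chosen for the text because that fit called it. Gpi1, glucose-6-phosphate isomerase, called in the same fit at adjusted p = 0.0446, had 76.0, 55.6 and 44.7 FPKM in Liver-RE and 30.2, 49.6 and 28.4 FPKM in WT.

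Uptake and storage of fat held the higher gene with the smallest adjusted p over the 6 libraries, though without WT replicate 2 that of Elovl6 was smaller (0.0982 against 0.135). Cd36 (chr5:17781690-17888959), the fatty acid translocase, had 48.8, 42.6 and 68.7 FPKM in Liver-RE livers, against 17.6, 20.9 and 17.6 FPKM in WT livers, 2.85 times the WT mean. Its log2 fold change was 1.44 ± 0.19 (SE) over the 6 libraries with a limma adjusted p of 0.303, and the adjusted p was 0.00765 with the spread of all 54 libraries. It was the only gene called higher in that fit. In the lipid droplet and uptake list 3 of 13 tested genes lay above all WT livers and 0 below, with a median of 0.16 (0.19 without WT replicate 2). Beside Cd36 these were Fitm1, a protein of droplet formation, with 7.74, 5.11 and 11.3 FPKM in Liver-RE and 3.57, 1.22 and 3.08 FPKM in WT, and Lpl, lipoprotein lipase, with 7.89, 9.96 and 10.6 FPKM in Liver-RE and 7.48, 5.80 and 6.34 FPKM in WT. Lpl was within 1.5 times of WT, and Liver-RE replicate 1 was barely above WT replicate 1. Of 28 genes of PPARα and fatty acid oxidation, which burn fat, only Cd36 lay above and 0 below, with a median of 0.06 (-0.09 without WT replicate 2). Of 26 cholesterol synthesis genes 0 lay above and 0 below, with a median of 0.01.

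Genes that female livers express more than male livers had a lower median in Liver-RE livers, though all mice were female. Of 22 tested genes 3 lay below all WT livers, Cyp2a4 and Cyp3a44 among them, and 0 above, a share close to the 12% of all genes. After quantile normalization 3 did so, against 5.03%. The median was -0.37, and -0.63 without WT replicate 2. The median log2 level of the list had an SD of 0.86 between livers of the same group, wider than either difference. Its members can vary together between livers, so they are not separate evidence. At an unadjusted p under 0.05 there were 8 lower and 1 higher, against 4.17% and 1.34% of all genes. At the 5 other harvest times together, tested further below, the median of the list was -0.36. There 8 of 22 genes were called lower and 0 higher, against 4.12% and 1.22% of all genes. Cyp3a44 (chr5:145773983-145805891), a female-biased cytochrome P450, had 0.936, 19.3 and 1.04 FPKM in Liver-RE livers, against 118, 129 and 36.4 FPKM in WT livers. Its mean was 0.0752 times that of WT (log2 fold change -4.27 ± 0.87 SE, limma adjusted p = 0.509, or 0.0296 with the spread of all 54 libraries). Cyp2a4, a steroid hydroxylase, had 206, 308 and 89.7 FPKM in Liver-RE and 544, 556 and 477 FPKM in WT, with the highest Liver-RE liver well under the lowest WT liver. The Cyp3a and Cyp2a genes have near-identical neighbours among which reads may be split, so the single values are uncertain.

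Within the Liver-RE group some of these genes divided the livers. Liver-RE replicate 2 had the highest level of the 3 for Cyp3a44, and it came into the WT range for several relatives. A1bg, a plasma protein, had 2.67, 69.5 and 1.74 FPKM in Liver-RE and 152, 64.6 and 111 FPKM in WT. Sult2a1, a steroid sulfotransferase, had 2.03, 148 and 4.89 FPKM in Liver-RE and 129.8, 277 and 45.8 FPKM in WT. Cyp3a16 had 0.102, 42.9 and 0.331 FPKM in Liver-RE and 64.5, 55.2 and 11.7 FPKM in WT. For A1bg, Sult2a1 and Cyp3a16, replicates 1 and 3 were thus far below WT and replicate 2 was not. For Cyp3a44 and Cyp2a4 replicate 2 was still below every WT liver, and Sult3a2, given above, showed no such split. Of 16 tested male-biased genes 2 lay above all WT livers (Cyp2d9 and Cyp4a12a) and 1 below (Cyp2u1), and 1 above and 0 below after quantile normalization, with a median of -0.02 (0.01 without WT replicate 2). Cyp2d9 had 105, 21.0 and 103 FPKM in Liver-RE and 15.2, 11.3 and 16.2 FPKM in WT, 5.35 times the WT mean. Again replicate 2 was the nearest to WT, though above every WT liver. Cyp4a12a had 1.74, 0.0435 and 2.40 FPKM in Liver-RE, and in WT it was listed at 0 in replicates 1 and 2 and at 0.00539 FPKM in replicate 3. It passed the filter through the Liver-RE livers alone, so its place above WT is no support for a rise of the list. Leaving out Liver-RE replicate 2 brought Cyp2d9 (adjusted p = 0.0049), Cyp4a12a (0.00923) and Cyp3a44 (0.00994) past the limma test. That liver was the nearest to WT in these same genes, so leaving it out favoured a call. These p-values are therefore no separate support for a difference.

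The sex bias of the liver is set by growth hormone, and a few genes of its pathway lay below WT in every Liver-RE liver. Of 15 tested genes of growth hormone, STAT5 and IGF 4 lay below all WT livers and 0 above, but only 1 after quantile normalization, against 5.03% of all genes. The median was -0.17, -0.25 without WT replicate 2 and -0.09 after quantile normalization. Igfals, which holds IGF1 in the blood complex, had 30.2, 56.5 and 33.1 FPKM in Liver-RE and 71.0, 69.5 and 68.0 FPKM in WT. Prlr, the prolactin receptor, had 11.8, 21.2 and 14.2 FPKM in Liver-RE and 27.8, 22.3 and 27.9 FPKM in WT. Igf1, the main hormone of the list, had 58.4, 74.2 and 40.5 FPKM in Liver-RE and 82.3, 75.0 and 78.8 FPKM in WT. Igfbp2, an IGF binding protein, had 191, 159 and 179 FPKM in Liver-RE and 203, 343 and 261 FPKM in WT. Liver-RE replicate 2 was the nearest to WT in Igfals, Prlr and Igf1, and the farthest from it in Igfbp2.

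Acute phase genes, which the liver makes for plasma, had the lowest median of the lists with at least 10 genes over the 6 libraries, -0.44 (-0.24 after quantile normalization). Without WT replicate 2 the median was -0.27, and female-biased genes (-0.63) and bile acid genes (-0.31) were lower. Hepatocyte markers then had nearly the same median (-0.28). The median log2 level of the acute phase list had an SD of 0.35 between livers of the same group. Of 21 acute phase genes 6 lay below all WT livers and 0 above, against 12% and 1.55% of all genes. After quantile normalization 3 lay below, against 5.03%. Apcs, serum amyloid P, had 47.7, 61.4 and 64.7 FPKM in Liver-RE livers, against 127, 98.7 and 170.1 FPKM in WT livers, 0.439 times the WT mean (log2 fold change -1.15 ± 0.22 SE, limma adjusted p = 0.455). Crp, C-reactive protein, had 90.7, 137 and 141 FPKM in Liver-RE and 180.0, 166 and 171 FPKM in WT. The 3 fibrinogen chains, the clotting protein of plasma, were lower alike. Fga had 901, 1174 and 1112 FPKM in Liver-RE and 1537, 1899 and 1449.7 FPKM in WT, and the ratios of the means were 0.652 for Fga, 0.721 for Fgb and 0.663 for Fgg. Itih3 completes the 6, with a ratio of 0.673. The summed level of the list was 7769 to 10664 FPKM in Liver-RE and 12351 to 15083 FPKM in WT. The hepatocyte markers as a whole summed to 39877 to 56425 FPKM in Liver-RE and 52716 to 61946 FPKM in WT, with 3 of 14 (Apoa1, Apob and Fgb, a member of both lists) below all WT livers, 0 above and a median of -0.23 (0.01 after quantile normalization). In whole liver fewer cells of a type cannot be told apart from less RNA per cell. The part of that lower sum in the acute phase values was not tested.

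Over the 6 libraries, bile acid and drug genes lay below WT about as often as genes in general. Without WT replicate 2, 7 of 18 bile acid genes lay below both remaining WT livers and 0 above, against 24.2% and 3.66% of all genes. Of 27 xenobiotic genes 3 then lay below and 3 above. Of 18 bile acid genes 3 lay below all WT livers and 0 above, against 12% and 1.55% of all genes, and 2 lay below after quantile normalization, against 5.03%, with a median of -0.17 (-0.31 without WT replicate 2). Hsd3b7, an early enzyme of bile acid synthesis, had 61.1, 102 and 143 FPKM in Liver-RE and 195, 147 and 206 FPKM in WT, 0.559 times the WT mean. Cyp27a1, which starts the acidic pathway, had 134, 171 and 180.4 FPKM in Liver-RE and 211, 185 and 216 FPKM in WT, and Abcb4, the phospholipid exporter into bile, 54.99, 48.4 and 51.8 FPKM against 75.8, 55.7 and 71.6 FPKM in WT. Cyp7a1, the rate-limiting enzyme, overlapped, with 143, 57.9 and 45.2 FPKM in Liver-RE and 147, 86.4 and 152 FPKM in WT. Of 27 xenobiotic genes 1 lay above (Nr1i2) and 2 below (Cyp1a2 and its regulator Ahr), and 3 above and 1 below after quantile normalization, with a median of -0.12 (-0.05 without WT replicate 2). Cyp1a2 had 79.4, 171 and 199 FPKM in Liver-RE and 262, 199.8 and 247 FPKM in WT, and the gap at its nearest point was under 1 FPKM.

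**Figure D3:**
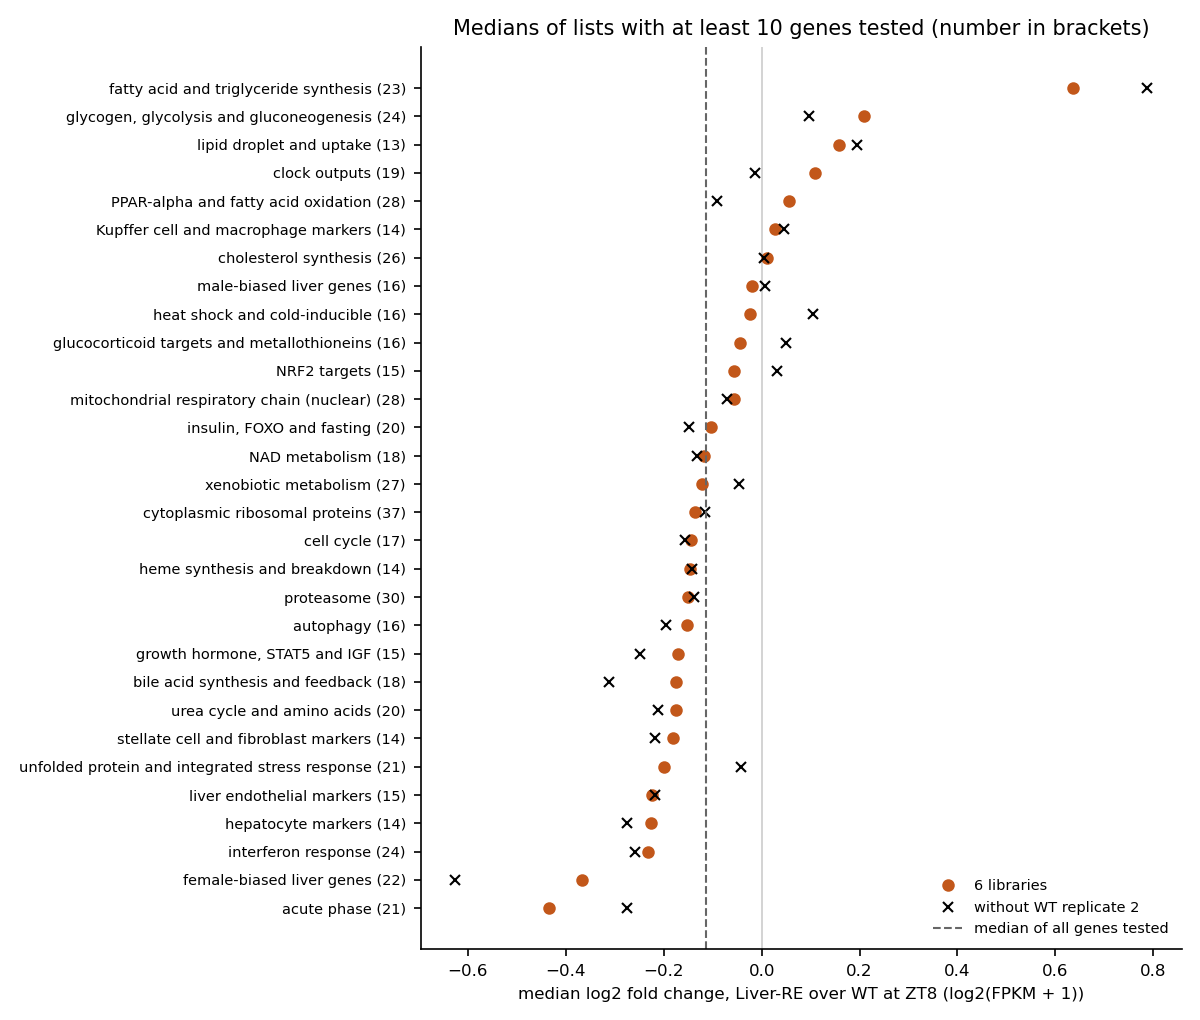
Median log2 fold change, Liver-RE over WT at ZT8 on log2(FPKM + 1), of the 30 lists with at least 10 tested genes (number in brackets), over the 6 libraries (circles) and without WT replicate 2 (crosses), with the median of all genes as a dashed line at -0.11. Fatty acid synthesis stands at 0.64 at the upper end, and acute phase (-0.44) and female-biased genes (-0.37) at the lower end.

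Most genes that passed a test at ZT8 did so in the fits with a shared spread, and most of them were lower in Liver-RE livers. The spread from 54 libraries called Cd36 higher and Timp3, Disp2, Nim1k, Ogn, Papln, Enho, Neo1, Cyp3a44 and Gsn lower. Enho (chr4:41638144-41640302), which encodes the secreted peptide adropin, had 2.16, 5.55 and 3.12 FPKM in Liver-RE livers, against 16.9, 15.4 and 24.8 FPKM in WT livers, 0.190 times the WT mean (log2 fold change -2.16 ± 0.28 SE; limma adjusted p = 0.303 with the 6 libraries and 0.0296 with the spread of 54). Timp3 (chr10:86300412-86349505), an inhibitor of matrix metalloproteinases, had 2.33, 2.15 and 4.33 FPKM in Liver-RE and 7.23, 6.16 and 8.44 FPKM in WT (limma adjusted p = 0.00103 with the spread of 54). Disp2 had 0.124, 0.239 and 0.126 FPKM in Liver-RE and 1.05, 0.759 and 1.34 FPKM in WT. For each of the 3 the highest Liver-RE liver lay well under the lowest WT liver.

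Gsn, the actin-severing gelsolin, had 2.45, 4.21 and 4.12 FPKM in Liver-RE and 6.57, 7.40 and 7.14 FPKM in WT. Ogn, a matrix proteoglycan, had 0.579, 0.342 and 0.419 FPKM in Liver-RE and 0.994, 0.823 and 1.40 FPKM in WT. Papln, a matrix protein, had 0.556, 0.813 and 0.825 FPKM in Liver-RE and 1.74, 1.25 and 1.65 FPKM in WT, and the kinase gene Nim1k 0.308, 0.555 and 0.561 FPKM against 1.13, 0.939 and 1.34 FPKM in WT. Neo1, the receptor neogenin, differed least, with 2.16, 2.62 and 2.23 FPKM in Liver-RE and 3.13, 3.93 and 3.11 FPKM in WT. Ogn, Papln and Timp3 are genes of the matrix, which cells other than hepatocytes mostly make. Without WT replicate 2 and with the spread of all other libraries, Cygb, a globin of stellate cells, was also called (limma adjusted p = 0.0446). Cygb had 0.964, 1.28 and 1.17 FPKM in Liver-RE and 2.74, 2.08 and 2.48 FPKM in WT. Nr1d1, given above, was in that set too, as were Casp6, an executioner caspase with 5.16, 5.87 and 9.32 FPKM in Liver-RE and 15.6, 4.96 and 15.3 FPKM in WT, and Agtr1a, the angiotensin receptor, with 18.4, 15.5 and 21.8 FPKM against 30.1, 21.4 and 31.4 FPKM in WT.

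Markers of other cells were read beside these genes. Of 14 stellate and fibroblast markers 4 lay below all WT livers (Hgf, Colec11, Ecm1 and Reln) and 0 above, with a median of -0.18 and a summed level of 159 to 223 FPKM in Liver-RE and 217 to 249 FPKM in WT. Hgf, hepatocyte growth factor, had 6.99, 7.54 and 8.42 FPKM in Liver-RE and 11.2, 10.7 and 11.3 FPKM in WT. Of 15 endothelial markers 1 was below (Fcgr2b) and 0 above, with a median of -0.22 and a sum of 152 to 234 FPKM in Liver-RE and 217 to 222 FPKM in WT. Of 14 Kupffer cell markers 0 were above or below, with a median of 0.03 and a sum of 268 to 546 FPKM in Liver-RE and 385 to 413 FPKM in WT. Their part in the lower matrix genes was not tested. Of 3 tested neutrophil markers 1 lay above, Mmp9, a matrix metalloproteinase, with 0.689, 2.52 and 2.62 FPKM in Liver-RE and 0.220, 0.300 and 0.156 FPKM in WT, while S100a8 and S100a9 overlapped. Of 2 tested erythroid markers 1 lay above, Alas2, with 10.4, 8.56 and 17.2 FPKM in Liver-RE and 5.40, 7.07 and 5.84 FPKM in WT. Markers of lymphocytes (4 tested), adipocytes (3), bile duct cells (1) and pancreatic acinar cells (1) had none wholly above or below. The acinar genes Cpa1, Ctrb1 and Prss2 were at 0 in all 6 libraries.

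The remaining lists had few members wholly above or below WT. In NAD metabolism 1 of 18 lay above (Nampt), and among urea cycle and amino acid genes 1 of 20 (Gpt2, an alanine aminotransferase, with 139, 107 and 169 FPKM in Liver-RE and 95.5, 99.6 and 100.2 FPKM in WT), with 0 below in both. Exactly 1 gene lay below and 0 above among 20 genes of insulin, FOXO and fasting, 16 glucocorticoid targets, 24 interferon response genes, 16 heat shock genes, 15 NRF2 targets and 16 autophagy genes. Proteasome subunits had 2 of 30 below and 0 above. Heme genes (14 tested), unfolded protein response genes (21), cell cycle genes (17) and respiratory chain genes (28) had none wholly above or below, but after quantile normalization 5 of the 28 respiratory chain genes lay above, against 4.17% of all genes. Medians of these lists ran between -0.23 in the interferon response and -0.02 in heat shock. Ribosomal protein genes had 9 of 37 below and 0 above with a median of -0.14, but 0 below after quantile normalization, when their median was 0.01.

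Whether the ZT8 differences departed from those at other harvest times was tested with the 36 Liver-RE and WT libraries. The difference at ZT8 minus the mean difference at the 5 other times passed the limma test for 0 of 11734 genes (0%; smallest adjusted p 0.505), and 535 genes had an unadjusted p under 0.05 (4.56%). Without WT ZT8 replicate 2 the count was also 0, with a smallest adjusted p of 0.106 (5.57% at an unadjusted p under 0.05). At the other times together 143 genes were higher in Liver-RE (1.22%) and 484 lower (4.12%). Of the 10 genes called at ZT8 with the spread of 54 libraries, 8 were also called there, and of the 25 called without WT replicate 2 and with the spread of all other libraries 9 were. Cd36 was called there with a log2 fold change of 1.16 (adjusted p = 1.11e-07), Timp3 with -1.33 (9.39e-12), Enho with -1.38 (5.61e-06) and Cyp3a44 with -3.18 (0.000109). Neo1 and Nim1k were not, and their differences at ZT8 exceeded those of the other times by -0.39 ± 0.09 and -0.44 ± 0.13 (SE; limma adjusted p = 0.505 and 0.948).

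Among the genes with the smallest p for that contrast, several were below WT at ZT8 and not at the other times, though none passed. Steap3, a ferrireductase of the endosome, had 1.53, 2.55 and 3.84 FPKM in Liver-RE and 4.06, 5.90 and 4.02 FPKM in WT at ZT8, with a log2 fold change of -0.67 there and 0.13 at the other times. Ncald, the calcium sensor neurocalcin, had 1.30, 2.51 and 2.27 FPKM in Liver-RE and 3.70, 3.03 and 4.11 FPKM in WT, with -0.62 at ZT8 and 0.25 at the other times. Gjb2, the gap junction protein connexin 26, had 47.6, 75.3 and 66.1 FPKM in Liver-RE and 108, 86.2 and 88.3 FPKM in WT, with -0.59 and 0.09. Hsd3b7, given above among the bile acid genes, had -0.90 at ZT8 and 0.26 at the other times, a difference of -1.16 ± 0.30 (SE; limma adjusted p = 0.824).

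The fatty acid synthesis genes were not called at the other times. For Elovl6 the log2 fold change was 2.03 at ZT8 and 0.43 at the other times (adjusted p = 0.441 there), a difference of 1.60 ± 0.77 (SE; limma adjusted p = 0.948). Over the day Elovl6 in Liver-RE averaged 196 ± 66.0 FPKM at ZT0, 71.5 ± 14.4 at ZT4, 198 ± 58.2 at ZT8, 92.5 ± 76.1 at ZT12, 50.4 ± 36.4 at ZT16 and 46.8 ± 15.7 at ZT20 (SD, n = 3). In WT it averaged 80.4 ± 66.3, 41.1 ± 14.3, 49.7 ± 23.7, 168 ± 56.0, 56.2 ± 27.2 and 33.5 ± 38.5 FPKM at the same times. Liver-RE was thus high at ZT0 and ZT8 and WT at ZT12. Thrsp at ZT0 averaged 934 ± 467 FPKM in Liver-RE and 281 ± 210 FPKM in WT, the same order as at ZT8. Acaca at ZT0 averaged 45.4 ± 19.1 FPKM in Liver-RE and 16.4 ± 7.05 FPKM in WT, again in that order. At ZT4 Thrsp averaged 480 ± 67.4 FPKM in Liver-RE and 121 ± 34.8 FPKM in WT. Thrsp at ZT12 averaged 329.8 ± 224 FPKM in Liver-RE and 633 ± 272 FPKM in WT, and Acaca 16.2 ± 6.86 FPKM in Liver-RE and 30.5 ± 3.74 FPKM in WT, the opposite order to ZT8. Hsd3b7 also turned round: at ZT12 it averaged 109 ± 37.7 FPKM in Liver-RE and 59.1 ± 24.4 FPKM in WT (SD, n = 3).

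Dbp was high at ZT4 and ZT8 in Liver-RE livers and at ZT8 and ZT12 in WT livers. Dbp in Liver-RE averaged 36.2 ± 0.265 FPKM at ZT4, 26.8 ± 14.8 at ZT8 and 7.35 ± 7.44 at ZT12 (SD, n = 3). In WT it averaged 3.59 ± 1.78 at ZT4, 43.1 ± 36.2 at ZT8 and 39.5 ± 7.89 FPKM at ZT12, the wide SD at ZT8 coming from replicate 2. Arntl was low in Liver-RE at ZT4 (1.65 ± 0.407 FPKM) and ZT8 (1.40 ± 0.525 FPKM). In WT it was low at ZT12 (0.436 ± 0.0764 FPKM) and in replicates 1 and 3 of ZT8 (0.414 and 0.563 FPKM), and replicate 2 raised the WT mean of ZT8 to 3.84 FPKM. Phase was not tested. For Cd36 the Liver-RE means lay between 28.5 ± 6.23 FPKM at ZT16 and 53.8 ± 13.5 FPKM at ZT12, and its WT means between 18.1 ± 5.04 FPKM at ZT4 and 22.6 ± 2.71 FPKM at ZT20.

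**Figure D4:**
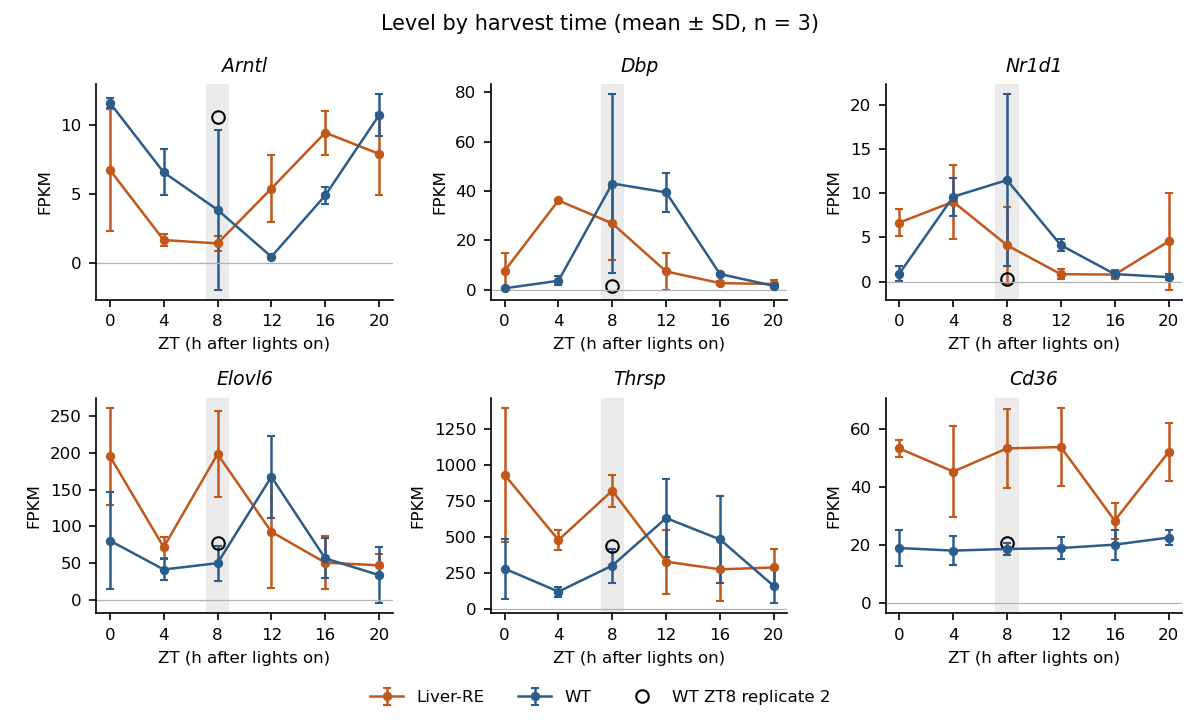
Levels in FPKM of 6 genes by harvest time (hours after lights on) in Liver-RE and WT livers, means ± SD of 3 livers, with ZT8 shaded and WT ZT8 replicate 2 as an open circle. Elovl6 is high at ZT0 (196 FPKM) and ZT8 (198 FPKM) in Liver-RE and at ZT12 in WT (168 FPKM), while mean Cd36 is above WT at every time.

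**Figure D5:**
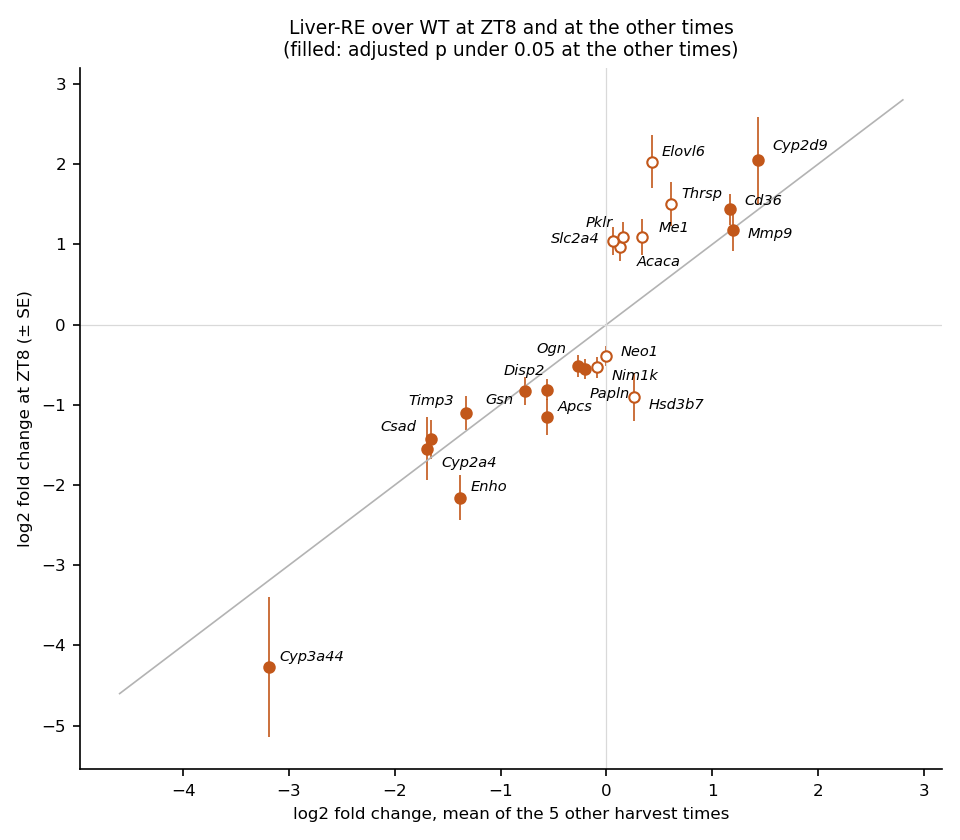
Log2 fold change, Liver-RE over WT on log2(FPKM + 1), at ZT8 (vertical axis, ± SE) against the mean of the 5 other times (horizontal axis) for 22 genes picked for the plot after their values were seen, filled where the other times passed at adjusted p under 0.05, with a line of equality. Timp3, Cd36 and Mmp9 lie near the line, and Elovl6 (2.03 at ZT8, 0.43 at other times) lies above it.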

How the data were processed

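The deposited table gives, for each gene, a level in each of 54 livers. The table names no unit, and its values behave as FPKM computed by the authors, although TPM with genes removed cannot be told apart from it. The labels' protocols give stranded single-end libraries of rRNA-depleted total RNA. CASAVA 1.8.2 and mm10 appear in the submitters' processing notes without a role; aligner, counter and annotation: not given in the sources used here. Whole reads were not recovered, since 9.87% to 14.2% of low values lay below 0.5 of a 1-read step, so no count model was used.

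Genes with a mean of at least 0.5 FPKM over the 6 libraries were fitted as log2(FPKM + 1) with limma 3.58.1 (R 4.3.3; empirical Bayes with intensity trend; two-sided; Benjamini-Hochberg over all genes; threshold 0.05), a log2 scale computed here from the deposited values. P-values measure the spread between livers, 1 library each. The fit on the 36 Liver-RE and WT libraries held 12 group means, and the shared spread came from 18 group means over 54 libraries, KO livers included. The code was checked on simulated data. The members and the 41 gene lists were chosen with earlier results of these data known. Genes eligible to be named were the clock genes, the 4 smallest p per list, the 10 smallest p against other times and those called; others (Slc2a4 is marked) were chosen after their values were seen. Lists had no test, and some of their members are not reported here. Coordinates and start windows were looked up by symbol in RefSeq tables of GRCm38.p6. Figures were drawn in Python 3.11.15 with pandas 2.3.3 and matplotlib 3.10.9. The alternatives tried were each library left out, the replicate block, a pseudocount of 0.1, no filter or a filter at 1 FPKM, quantile normalization, the 20 highest genes left out, robust empirical Bayes and the shared spread. Shares of genes without overlap were also computed without WT replicate 2 and after quantile normalization, which was added after the data were seen.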

Additional observations from a re-analysis of the deposited data

How the results depend on the processing

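Over the 6 libraries 0 genes were higher and 0 lower at ZT8, and this held with a pseudocount of 0.1, no filter, a filter at 1 FPKM, quantile normalization, the 20 highest genes left out and robust empirical Bayes. The replicate block gave 0 and 0 as well, at ZT8 and for ZT8 against the other times. Same-numbered livers deviated from their group means with correlations of 0.052, 0.297 and 0.174, and Liver-RE replicate 1 correlated best with WT replicate 3 (0.161), so the numbers were not taken as pairs. The spread from 54 libraries gave 1 higher and 9 lower, quantile normalization without WT replicate 2 gave 1 and 1, and the spread of all other libraries without it 4 and 21. Leaving out 1 library at a time gave 0 to 4 higher and 0 to 5 lower, and 0 to 1 lower for ZT8 against the other times, where the 1 came without Liver-RE replicate 3. Shares of genes without overlap were 1.55% above and 12% below over the 6 libraries, 3.66% and 24.2% without WT replicate 2, and 4.17% and 5.03% after quantile normalization. Of 76 genes carried through the alternatives 66 kept their sign in all that were run. These 76 left out some genes given above and several clock genes, and signs turned among those too. Hlf went from -0.046 to 0.092 after quantile normalization. Without WT replicate 2, Tubb2a went from -0.29 to 0.73, Coq10b from 0.15 to -0.46 and Usp2 from 0.27 to -0.25. With quantile normalization and without WT replicate 2, the log2 fold change turned to 0.68 for Arntl, 0.060 for Clock, 0.67 for Cry1, -0.52 for Nr1d2, -1.18 for Dbp, -0.16 for Tef, 0.49 for Nfil3 and -0.13 for Rgs16. With the spread of all other libraries and without WT replicate 2 it turned to 0.67 for Arntl, -0.086 for Per1, 0.57 for Cry1, -0.67 for Nr1d2, -1.34 for Dbp, -0.28 for Tef, 0.38 for Nfil3 and -0.26 for Rgs16. Leaving out 1 library at a time gave -0.85 to 0.67 for Arntl, -0.086 to 0.37 for Per1, -0.56 to 0.57 for Cry1, -1.07 to 0.021 for Ciart, -0.67 to 0.85 for Nr1d2, -1.34 to 1.09 for Dbp, -0.28 to 0.30 for Tef, -0.84 to 0.38 for Nfil3 and -0.26 to 1.81 for Rgs16. Of the sign changes with 1 library left out among the 76 genes, 8 came without WT replicate 2 (the cause was not tested). Differences within the spread of 3 livers a group were not detectable.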

Other observations

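Heme genes, which make, carry and break down the cofactor of the cytochrome P450s, summed to 1761 to 2428 FPKM in Liver-RE and 2530 to 2747 FPKM in WT, with 0 of 14 members below every WT liver. Most of the sum was Hpx, the plasma heme carrier hemopexin, which overlapped, with 1183.5, 1796 and 1974 FPKM in Liver-RE and 1894, 2319 and 2009 FPKM in WT, and the median of the list after quantile normalization was -0.0058. Csad, an enzyme of taurine synthesis, had 22.0, 20.8 and 38.5 FPKM in Liver-RE at ZT8 and 84.8, 71.9 and 61.0 FPKM in WT. Its log2 fold change was -1.43 ± 0.24 at ZT8 (SE; limma adjusted p = 0.431) and -1.66 at the other times (adjusted p = 5.61e-06). Mgp, matrix Gla protein, had 0.253, 0.171 and 0.733 FPKM in Liver-RE and 1.74, 2.41 and 1.74 FPKM in WT, and its log2 fold change was -0.75 at the other times (limma adjusted p = 8.81e-05). Both were named after their values were seen. Kupffer cell markers had a median log2 fold change of 0.03 at ZT8 and of -0.31 at the other times, where 6 of 14 were called lower, against 4.12% of all genes; the difference between the times was not tested for the list. At the other times 7 of 28 PPARα and fatty acid oxidation genes and 5 of 27 xenobiotic genes were called higher, against 1.22% of all genes. The ZT8 test over the 6 libraries called 0% of all genes, so its counts cannot be set against these.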
